A study of Mus musculus with 12 samples.

Results

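A set of 9 transcription factor genes of myeloid cells was followed in neutrophils sorted from mouse hearts: Spi1, Cebpa, Cebpb, Cebpd, Klf2, Klf4, Klf6, Xbp1 and Myc. They were chosen by symbol from the deposited gene table, which lists 8 of the 9 among 11911 genes. Cebpa was not listed and is not analysed here. The libraries were 6 of the genotype labelled control (numbered 2, 6, 7, 8, 11 and 12 in the titles) and 6 of the genotype labelled LOY (3, 4, 5, 10, 14 and 15), for hematopoietic cells that lack the Y chromosome. All 12 carry the treatment label control and the title of a control bone marrow transplant, and each came from 800 left ventricular cells sorted as CD45.2+, Ly6G+, CD64- and positive for a red fluorescent protein. Strain, age, sex and the way in which the Y chromosome was lost are not given in the sources used here. Nothing in the labels says that the libraries came from separate mice, so p-values measure the spread between libraries.

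Granulocytes and monocytes are specified by a small set of factors. PU.1, encoded by Spi1, is an ETS-family protein that opens myeloid enhancers, and the C/EBP proteins are leucine zipper factors that act with it: C/EBPα sets up granulocyte precursors in steady state, C/EBPβ takes part when granulocyte output rises in an emergency, C/EBPδ is induced by inflammatory signals, and C/EBPε acts late in granule formation. Krüppel-like factors are zinc finger proteins, of which KLF2 restrains and KLF6 promotes inflammatory gene expression in mouse macrophages, while KLF4 is best known in monocytes. XBP1 drives the response to unfolded proteins, and MYC drives growth and division, against which MXD1 competes for their shared partner MAX as granulocytes mature.

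The labels were checked first. The reads of the listed genes came to between 6767108 and 12561174 per library. The Y-linked genes Ddx3y, Eif2s3y and Uty had a sum of 1032 to 1972 normalised reads in control libraries and of 0 to 59.3 in LOY libraries, where normalised reads are the reads of a gene divided by 1 factor per library. All 13 neutrophil markers searched for were listed, with a summed level of at least 348320 normalised reads in every library. Ly6g, the gene of the sorting antigen, was under 10 normalised reads in control 12 and in LOY 3, 4 and 10, and between 186 and 1039 in the other 8 libraries. Markers of other cells were present at lower sums. Macrophage and monocyte markers (13 of 14 listed) ran from 7686 to 12597 normalised reads in control and from 4270 to 15444 in LOY libraries, endothelial markers (12 of 12) from 1064 to 4097 and from 2951 to 6702, cardiomyocyte markers (12 of 12) from 4025 to 7832 and from 4429 to 58872, fibroblast markers (7 of 7) from 139 to 1537 and from 386 to 9344, and B and plasma cell markers (9 of 9) from 4344 to 14928 and from 3887 to 25880. Of the fibroblast markers, Pdgfra and Lum were at 0 in all 6 control libraries and in 5 and 4 LOY libraries respectively, while Dcn was above 0 in all 12 and Col1a2 in all but 1 control library, and Postn and Col1a1 reached 1866 and 857 normalised reads in LOY libraries. Jchain, a plasma cell marker, was at 0 in 4 control and 5 LOY libraries. Their part in the levels below was not tested, and in bulk libraries fewer cells of a type and less RNA per cell cannot be told apart.

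None of the 8 factors passed the comparison of LOY with control libraries, and in each of them the groups overlapped, while 0.201% of all genes had groups that did not. The test was limma on log2(normalised reads + 1) over 6951 genes, with Benjamini-Hochberg adjustment and a threshold of 0.05; across all genes it called 0.0288% (0.0144% higher and 0.0144% lower in LOY), and 0 of the 8 members were called in either direction. With edgeR and DESeq2, which called 0% and 0.144% of all genes, 0 members were called as well. An unadjusted p under 0.05 was reached by 0 members in each tool, beside 4.37% of all genes in limma, 1.76% in edgeR and 3.35% in DESeq2, and the adjusted p-values of the members in limma ran from 0.997 to 0.9995. Of the 8 log2 fold changes 6 were negative and 2 positive, with a median of -0.59, beside a median of 0.01 over all genes tested. In the authors' deposited table the members' adjusted p-values ran from 0.746 for Klf2 to 0.9998 for Klf4, and 303 of the 9722 genes with a p-value there (3.12%) had an adjusted p under 0.05.

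**Figure D1:**
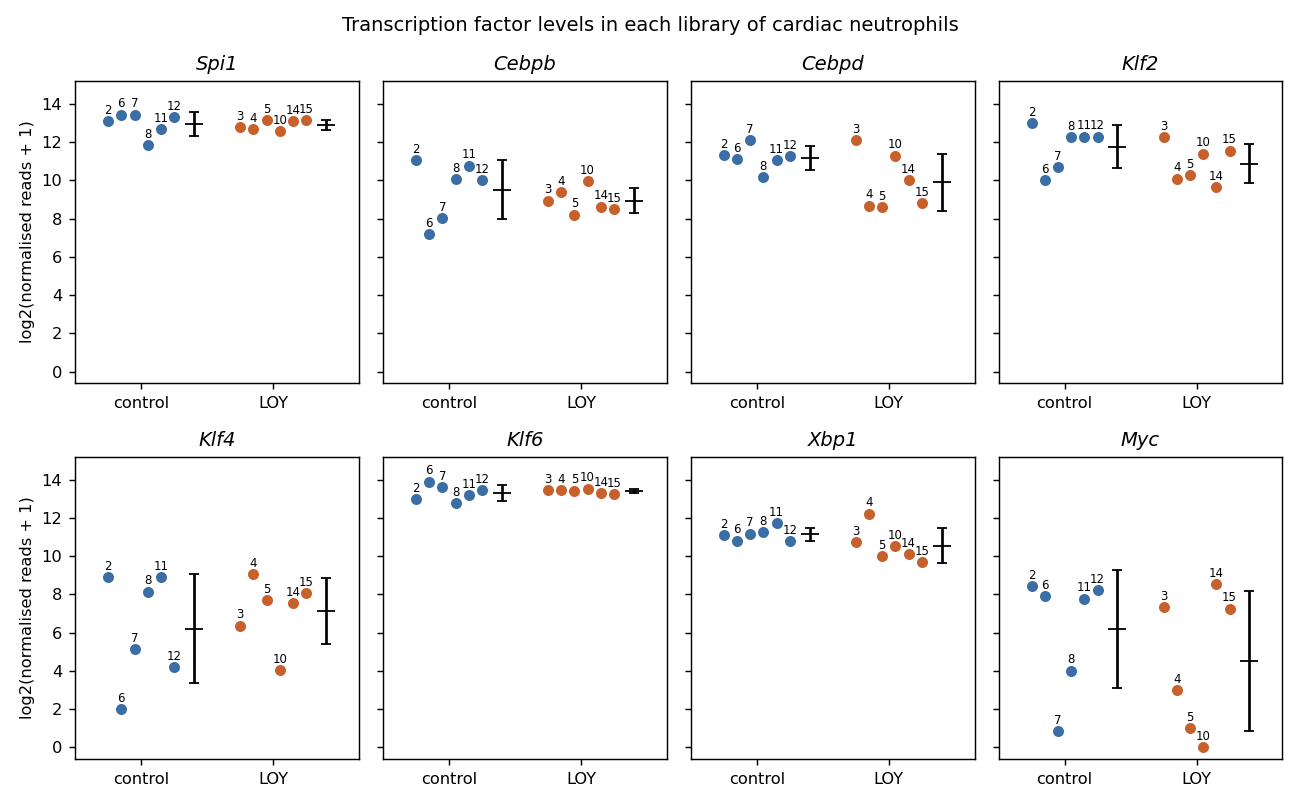
Level of the 8 listed factors in each library, on a log2(normalised reads + 1) scale; each point is 1 library with its number, and bars give the mean ± SD of 6 libraries. Over the 12 libraries Klf6 and Spi1 vary the least, while Klf4 and Myc vary the most within each genotype.

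Over the 12 libraries Spi1 was among the most abundant and steadiest of the factors. In control libraries alone its coefficient of variation, 34.6%, was above those of Klf6 (29.2%) and Xbp1 (25.5%). In LOY libraries it was 18.2%. Spi1 (ENSMUSG00000002111, GRCm38 chromosome 2, 91082390 to 91115756, plus strand) had a lowest, median and highest value of 3642, 9424 and 11117 normalised reads in the control libraries. In the LOY libraries these were 6058, 7897 and 9238. Control 8 was the lowest of all 12 and the 6 LOY values lay inside the control range. The means were 8544 ± 2954 and 7814 ± 1418 (SD, n = 6 each), and the log2 fold change in limma was -0.05 (SE 0.27, 95% interval -0.64 to 0.53, adjusted p = 0.9995). Spi1 made up 68.4% ± 8.8 (SD, n = 12) of the summed level per kb of exon of the 15 listed ETS-family genes and was the highest of them in all 12 libraries. Ets2 followed with 17.5% ± 5.72 (SD, n = 12), and Spib, the closest relative of PU.1, stood at 0.233% ± 0.589 (SD, n = 12).

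Of the C/EBP genes, Cebpb and Cebpd were read in every library, and they varied in different libraries. Cebpb (ENSMUSG00000056501, chromosome 2, 167688915 to 167690418, plus strand, a gene of 1 exon) had a lowest, median and highest value of 145, 1052 and 2129 normalised reads in control libraries and of 297, 444 and 1006 in the LOY libraries. The control libraries were spread on either side of the LOY values, with control 6 and 7 at 145 and 264 and control 2 and 11 at 2129 and 1754. Means were 1066 ± 787 and 537 ± 264 (SD, n = 6 each), with a log2 fold change of -0.58 (SE 0.66, 95% interval -1.996 to 0.83, adjusted p = 0.999 in limma). The LOY mean was 0.504 of the control mean in normalised reads, and the log2 fold change was -1.001 in edgeR and -0.99 in DESeq2.

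Cebpd (ENSMUSG00000071637, chromosome 16, 15887286 to 15891031, plus strand, also of 1 exon) had the smallest p of the 8 in limma, though not in edgeR, DESeq2 or the authors' deposited table, where that of Klf2 was smallest. Its lowest, median and highest values were 1143, 2347 and 4404 normalised reads in control libraries and 385, 734 and 4370 in the LOY libraries. LOY 4, 5 and 15, at 411, 385 and 443.9, and LOY 14, at 1025, were below every control library, while LOY 3 was close to the highest control. The share of all genes with as many LOY libraries below every control library was not counted. Means were 2489 ± 1066 and 1525 ± 1615 (SD, n = 6 each), with a log2 fold change of -1.26 (SE 0.60, 95% interval -2.54 to 0.02), an unadjusted p of 0.0527 and an adjusted p of 0.997 in limma. The log2 fold change was -0.73 in edgeR and -0.71 in DESeq2. Without LOY 3 the log2 fold change was -1.70, with an unadjusted p of 0.00583 and an adjusted p of 0.976 in limma. That unadjusted p was the lowest of Cebpd over all alternatives run, so it is low by selection. In the same run 292 of 6418 genes had an unadjusted p under 0.05.

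Reads of these genes are uncertain in part, since the library chemistry does not mark strand. The exon of Cebpb shares 312 bases with Tmem189 on the opposite strand, and the exon of Cebpd shares 562 bases with Spidr on the opposite strand. Tmem189 had 897 ± 470 normalised reads in control and 723 ± 613 in LOY libraries, and Spidr 389 ± 366 and 230 ± 456 (SD, n = 6 each). Tmem189 was highest in control 2, at 1767, where Cebpb was also highest, at 2129. In LOY 3 Tmem189 was at 1653 with Cebpb at 492, and in control 11 at 698 with Cebpb at 1754. Spidr was highest in LOY 5, at 1152, where Cebpd was lowest. In LOY 4 and 15, with Cebpd nearly as low, at 411 and 444, Spidr was at 40.7 and 0. In control 7, with the highest Cebpd, at 4404, Spidr was at 645. The part of reads from the shared bases in the levels of Cebpb and Cebpd was not tested. Cebpe was low throughout, at 53.7 ± 61.9 and 49.9 ± 68.1 normalised reads (SD, n = 6 each), with 0 reads in 4 libraries. Per kb of exon, the highest gene of the 5 listed C/EBP genes was in 8 of 12 libraries Ddit3, which encodes the stress-induced member CHOP, in 2 Cebpd and in 2 Cebpb.

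Among the Krüppel-like factors Klf6 and Klf2 stood far above Klf4. Klf6 (ENSMUSG00000000078, chromosome 13, 5861482 to 5870394, plus strand) had a lowest, median and highest value of 6934, 10253 and 15249 normalised reads in control libraries and of 9628, 11045 and 11829 in the LOY libraries. The LOY libraries lay close together inside the control range. The coefficient of variation was 29.2% in control and 7.52% in LOY libraries, a difference that was not tested. The means of 10525 ± 3078 and 10815 ± 813 (SD, n = 6 each) gave a log2 fold change of 0.09 (SE 0.20, 95% interval -0.34 to 0.52, adjusted p = 0.999 in limma).

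Klf2 (ENSMUSG00000055148, chromosome 8, 72319033 to 72321656, plus strand) ranged over 10.1-fold among the 12 libraries. Its lowest, median and highest values were 1043, 4988 and 8118 normalised reads in control libraries and 806, 1975 and 4920 in the LOY libraries. Control 6 and 7 were low, at 1043 and 1683, and the other 4 control libraries were above every LOY library. The share of all genes with as many control libraries above every LOY library was not counted. The means were 4306 ± 2588 and 2300 ± 1572 (SD, n = 6 each). The log2 fold change was -0.89 (SE 0.55, 95% interval -2.07 to 0.30, unadjusted p = 0.131, adjusted p = 0.997 in limma). Without control 6 it was -1.24, with an unadjusted p of 0.0304 and an adjusted p of 0.9748 in limma. That unadjusted p was the lowest of Klf2 over all alternatives run, so it is low by selection. In the same run 285 of 6564 genes had an unadjusted p under 0.05.

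Klf4 (ENSMUSG00000003032, chromosome 4, 55527143 to 55532466, minus strand) was read in all 12 libraries but at very unequal levels. Its lowest, median and highest values were 2.99, 158 and 477 normalised reads in control libraries and 15.5, 197 and 537 in the LOY libraries. The lowest, control 6, held 4 reads and the highest count, in control 11, was 837 reads. The means of 215 ± 227 and 216 ± 182 (SD, n = 6 each) were nearly equal, while the log2 fold change was 0.92 (SE 1.38, 95% interval -2.03 to 3.87, adjusted p = 0.999 in limma), with control 6, 7 and 12 at 2.99, 34.0 and 17.6. In edgeR the log2 fold change of Klf4 was -0.0010 and in DESeq2 0.0046. Of the 11 listed KLF genes, Klf6 had the largest share of the summed level per kb in 7 libraries and Klf2 in the other 5, with mean shares of 49.1% ± 15.3 and 31.6% ± 16.9 (SD, n = 12). Klf4 held 1.38% ± 1.24 (SD, n = 12).

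Xbp1 (ENSMUSG00000020484, chromosome 11, 5520659 to 5525893, plus strand) was higher in LOY 4 than in any other library and did not pass the comparison of LOY with control. Its lowest, median and highest values were 1773, 2266 and 3399 normalised reads in control libraries and 821, 1293 and 4781 in the LOY libraries. The other 5 LOY libraries, at 821 to 1691, lay below every control library, while LOY 4 lay above all of them. The share of all genes whose groups separate with a library set aside was not counted. The means were 2324 ± 593 and 1817 ± 1487 (SD, n = 6 each), with a log2 fold change of -0.60 (SE 0.39, 95% interval -1.44 to 0.23, unadjusted p = 0.144, adjusted p = 0.997 in limma). It was -0.37 in edgeR and -0.36 in DESeq2. Without LOY 4 the log2 fold change was -0.94 in limma, with an unadjusted p of 0.00818 and an adjusted p of 0.998. That unadjusted p was the lowest of Xbp1 over all alternatives run, so it is low by selection. In the same run 280 of 6613 genes had an unadjusted p under 0.05. The B and plasma cell marker sum was 5737 normalised reads in LOY 4, inside the range of the control libraries. LOY 3, the library with the highest sum, had 1691 normalised reads of Xbp1. The macrophage and monocyte sum of LOY 4, at 10801, was also inside the control range. The fibroblast, cardiomyocyte and endothelial sums of LOY 4, at 5434, 10045 and 4489, were above the control maxima of 1537, 7832 and 4097. The part of other cells in the Xbp1 level of LOY 4 was not tested. The table counts reads per gene, so the spliced and unspliced forms of Xbp1 mRNA cannot be told apart.

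Myc (ENSMUSG00000022346, chromosome 15, 61985391 to 61990374, plus strand) was well read in some libraries of each genotype and hardly at all in others. Its lowest, median and highest values were 0.828, 230 and 349 normalised reads in control libraries and 0, 79.7 and 372 in the LOY libraries. Control 7 and LOY 5 held 1 read each, LOY 4 held 6 and control 8 held 12, and LOY 10 held 0, which allows up to 2.12 normalised reads (3 reads, counting error only). The other 7 libraries lay between 152 and 372, with LOY 14 the highest. The means were 187 ± 146 and 115 ± 147 (SD, n = 6 each). The log2 fold change of -1.69 (SE 1.86, 95% interval -5.68 to 2.30, adjusted p = 0.999 in limma) depends on the pseudocount, at -1.86 with 0.5 and -1.27 with 5, and was -0.71 in edgeR and -0.69 in DESeq2. The LOY mean was 0.618 of the control mean.

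Mxd1 stood far above Myc in level. It had 22699 ± 9436 normalised reads in control against 26380 ± 9698 in LOY libraries (SD over 6 libraries each; log2 fold change 0.25, SE 0.40, adjusted p = 0.999 in limma). Per kb of exon it made up 81.7% ± 7.3 of the summed level of the 11 listed genes of the MYC network and was the highest in all 12 libraries, against 1.48% ± 1.37 for Myc (SD, n = 12). The log2 ratio of Mxd1 to Myc within a library ran from 5.95 to 13.95 in control and from 5.85 to 14.56 in LOY libraries. Its means were 8.10 ± 3.04 and 10.04 ± 4.01 (SD, n = 6 each). The difference of 1.94 did not pass a two-sided exact permutation test (p = 0.400). In LOY 10, LOY 5 and LOY 4 the ratio, at 14.56, 14.13 and 12.09, rested on 0, 1 and 6 reads of Myc. In control 7 it rested on 1 read, so these values and the difference depend on the pseudocount. The ratio planned for Cebpb and Cebpa could not be formed without Cebpa.

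Levels of different genes were set against each other per kb of exon. In normalised reads per kb the order of the 12-library means was Spi1 at 3035 ± 832, Klf6 at 2430 ± 490, Klf2 at 1789 ± 1242, Xbp1 at 637 ± 342, Cebpd at 536 ± 373, Cebpb at 533 ± 415, Klf4 at 70.6 ± 64.3 and Myc at 55.6 ± 53.1 (SD, n = 12). Spi1 was above 97.9% and Myc above 43.1% of the 6943 tested genes with a known exon length. Only 2 of the 7 steps between neighbours in this order passed an exact paired permutation test within libraries, adjusted over the 7. The order, and so the pairs and their direction, came from the same values, which these p-values do not take into account. Klf2 was above Xbp1 in 11 of 12 libraries (mean log2 difference 1.29 ± 1.23 SD, adjusted p = 0.0188), and Cebpb was above Klf4 in 12 of 12 (3.49 ± 1.93, adjusted p = 0.00342, the smallest these permutations can give). Spi1 and Klf6 missed the threshold, with Spi1 higher in 9 of 12 libraries (0.29 ± 0.35, adjusted p = 0.0501), and the 4 remaining pairs of neighbours had adjusted p-values from 0.117 to 0.997 in the exact permutation test.

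**Figure D2:**
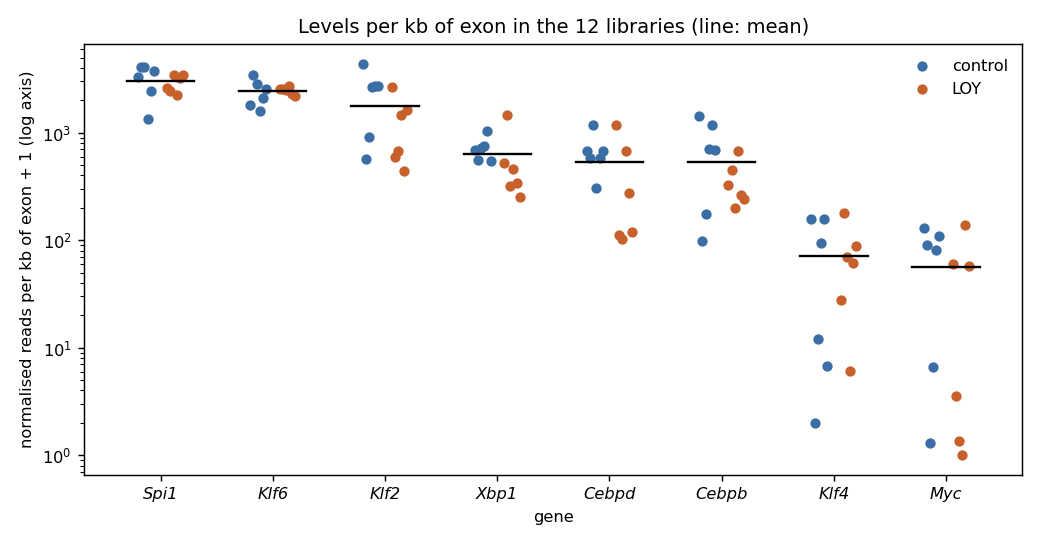
Normalised reads per kb of exon, plus 1, on a log axis, for each factor in the 12 libraries; points are libraries and lines the means. The order runs from Spi1, at 3035, to Myc, at 55.6, with Cebpb at 533 and Klf4 at 70.6.

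No pair of factors passed a test of varying together, which in 12 libraries does not show that they vary independently. Of 28 pairs of members, 17 had a positive and 11 a negative Pearson r over the 12 libraries on log2(normalised reads + 1), and 0 passed after adjustment over the 28 (permutation test with 100000 resamples; 5 had an unadjusted p under 0.05). The highest r was that of Cebpb and Klf2, at 0.752 (permutation p = 0.00569, adjusted p = 0.0797; Spearman rho 0.769, permutation p = 0.00488, adjusted p = 0.0683). It was 0.617 without control 2 and control 6, the libraries farthest from the median of Cebpb, and 0.984 within the 6 control and 0.218 within the 6 LOY libraries. Control 2 was highest and control 6 and 7 were low for both genes. The lowest r was that of Klf4 and Klf6, at -0.758 (permutation p = 0.00326, adjusted p = 0.0797; Spearman rho -0.790, permutation p = 0.00283, adjusted p = 0.0683), and -0.577 without control 6 and LOY 10. It was -0.897 within the control and -0.580 within the LOY libraries.

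**Figure D3:**
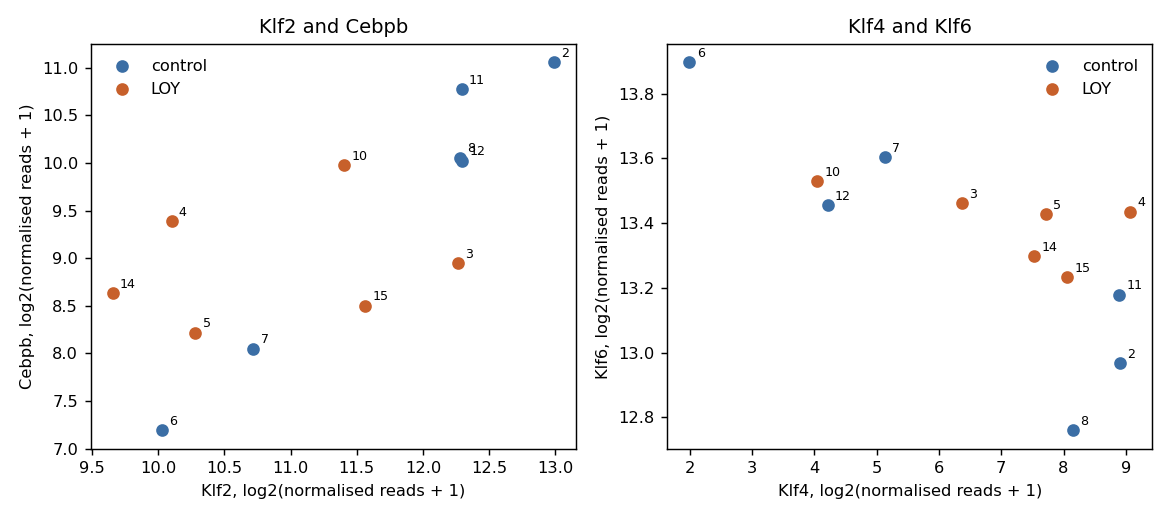
Log2(normalised reads + 1) of Cebpb against Klf2 and of Klf6 against Klf4; each point is 1 library with its number. Control 6 has the lowest Cebpb and Klf4 and the highest Klf6, and control 2 the highest Cebpb and Klf2.

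The upstream sequences of these 4 genes are shown because they form the pairs with the highest and the lowest correlation. RefSeq start sites (GRCm38.p6) were held for 6 of the 9 members, and the windows are the 200 bases from 230 to 31 bases before the start, written on the strand of the gene from 5′ to 3′. Capitals mark matches, on either strand, to a motif of the factors described: TTGCNNAA for C/EBP, GAGGAA for PU.1, CCNCNCCC for KLF, CACGTG for MYC and TGACGTG for XBP1. The windows lie at chr2:167688685-167688884 (plus strand) for Cebpb, chr8:72318832-72319031 (plus) for Klf2, chr4:55532506-55532705 (minus) for Klf4 and chr13:5861259-5861458 (plus) for Klf6.
Cebpb: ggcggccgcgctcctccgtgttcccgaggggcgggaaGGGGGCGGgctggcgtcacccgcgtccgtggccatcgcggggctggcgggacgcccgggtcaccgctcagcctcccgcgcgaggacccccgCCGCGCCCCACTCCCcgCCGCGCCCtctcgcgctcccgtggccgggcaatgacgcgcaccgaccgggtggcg
Klf2: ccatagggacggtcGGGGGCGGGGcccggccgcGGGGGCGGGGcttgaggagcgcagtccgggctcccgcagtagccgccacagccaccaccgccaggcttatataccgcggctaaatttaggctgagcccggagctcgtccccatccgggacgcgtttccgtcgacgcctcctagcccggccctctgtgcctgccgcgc
Klf4: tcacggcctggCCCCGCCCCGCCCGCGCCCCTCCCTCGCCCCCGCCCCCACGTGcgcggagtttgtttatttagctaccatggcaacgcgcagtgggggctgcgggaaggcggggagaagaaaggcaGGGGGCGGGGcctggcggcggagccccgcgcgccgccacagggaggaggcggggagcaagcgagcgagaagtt
Klf6: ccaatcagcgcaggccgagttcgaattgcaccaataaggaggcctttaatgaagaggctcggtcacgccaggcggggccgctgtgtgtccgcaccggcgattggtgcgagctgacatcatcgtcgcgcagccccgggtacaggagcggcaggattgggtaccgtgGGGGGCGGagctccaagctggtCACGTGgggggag
The KLF motif, a GC-rich box, matched 4 times in Cebpb, 4 in Klf2, 9 in Klf4 and 1 in Klf6, with overlapping matches in the first 3 genes, and 39.5% of all 32851 promoter windows of this length held at least 1. The MYC motif matched 1 time in Klf4, where it overlaps a KLF match, and 1 time in Klf6, beside 4.74% of all windows. The letters of the C/EBP, PU.1 and XBP1 motifs were in none of the 4 windows, beside 7.89%, 18.7% and 1.26% of all windows. A match describes these letters and does not show binding.

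For each factor the gene whose level followed it most closely over the 12 libraries was looked up among 5725 other tested genes with a mean of at least 100 normalised reads; the libraries share depth and scaling, and the best of so many genes is high by selection. For Spi1 it was Selplg, the selectin ligand of leukocytes (Pearson r 0.962, Spearman rho 0.867). For Klf2 it was Arf6, a small GTPase of membrane traffic (0.935 and 0.881), for Cebpd Armc8 (0.928 and 0.886), for Cebpb Suds3 (0.900 and 0.909), for Klf6 Chmp1a (0.900 and 0.909), for Xbp1 the superoxide dismutase gene Sod1 (0.863 and 0.804), for Klf4 the zinc finger gene Zeb2 (0.829 and 0.748) and for Myc Umad1 (0.968 and 0.704). In limma the log2 fold changes were 0.08 (SE 0.26) for Selplg, -1.49 (SE 0.82) for Arf6 and -3.51 (SE 1.76) for Armc8. They were -1.47 (SE 1.69) for Suds3, 0.81 (SE 1.12) for Chmp1a and -0.80 (SE 0.89) for Sod1. For Zeb2 and Umad1 they were 0.52 (SE 0.87) and -0.99 (SE 2.03), and none of these genes passed. In control 7, control 8, LOY 4, LOY 5 and LOY 10 Myc held at most 12 reads and Umad1 at most 7. Among the other libraries Myc was lowest in LOY 15, at 152 normalised reads, with Umad1 at 505. It was highest in LOY 14, at 372, with Umad1 at 260. In control 11 both were lower than in LOY 14, at 219 and 185. Whether Umad1 followed Myc outside the libraries where both were near 0 was not tested.

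**Figure D4:**
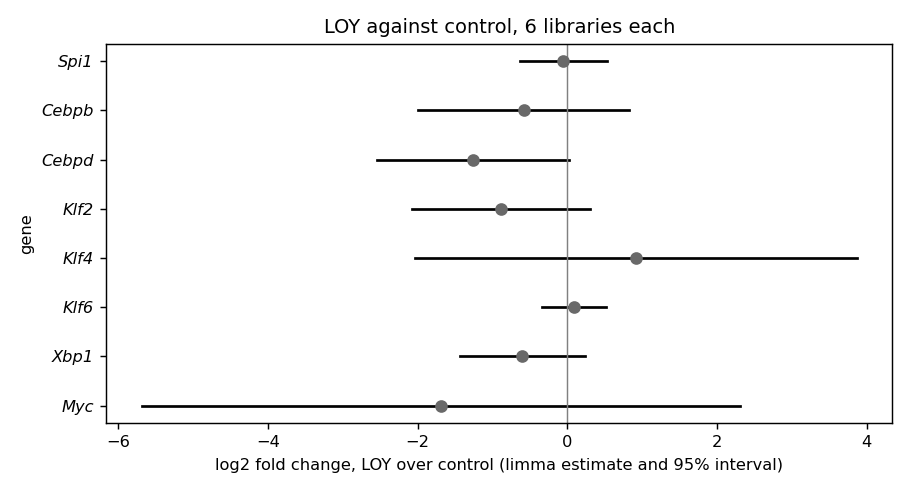
Log2 fold change of each factor, LOY over control, from limma, with its 95% interval (6 libraries each). All 8 intervals include 0, and those of Spi1 and Klf6 lie within 1 log2 unit of it.

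How precise the comparison was differed between factors. For Spi1 and Klf6 the 95% interval lay within 1 log2 unit of 0, as it did for 5.68% of all genes tested. The standard error was 0.20 to 0.39 for Klf6, Spi1 and Xbp1, 0.55 to 0.66 for Klf2, Cebpd and Cebpb, and 1.38 and 1.86 for Klf4 and Myc, against a median of 1.35 over all genes tested. A 2-fold difference in either direction therefore lies inside the intervals of Klf4 and Myc, and a 2-fold lower level inside those of Cebpb, Cebpd, Klf2 and Xbp1.

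Relatives, partners and targets of the factors were compared as lists, which include the members themselves, and 0 genes of any list passed in limma. In the C/EBP list 5 of 6 genes were tested, 2 with a positive and 3 with a negative log2 fold change (median -0.34); Ddit3 stood at 0.11 (SE 0.28), Cebpe at -0.34 (SE 1.79) and Cebpg at 0.01 (SE 1.25). In the ETS list 14 of 15 were tested, 6 positive and 8 negative (median -0.05), with Gabpa, a factor of mitochondrial and housekeeping genes, at -2.94 (SE 1.98), Elf4 at 2.23 (SE 1.53) and Elf1 at -0.69 (SE 0.68). Gabpa held 0 reads in control 11 and LOY 4, 5 and 14, and Elf4 in control 12, so both fitted values depend on the pseudocount. In the KLF list 8 of 17 were tested, 5 positive and 3 negative (median 0.28). There Klf10, a gene induced by TGF-beta, stood at 0.61 (SE 0.47), Klf5 at 2.29 (SE 1.82) and Klf3, a repressor, at -0.49 (SE 0.39). Klf5 had means of 74.0 ± 118 normalised reads in control and 99.6 ± 49.9 in LOY libraries (SD, n = 6 each). It held 0 reads in control 8 and 12 and LOY 15, so its fitted value depends on the pseudocount. Of the other myeloid factors 19 of 28 were tested, 8 positive and 11 negative (median -0.06). Maf, a macrophage factor, stood at -1.50 (SE 1.148), and Rara, the retinoic acid receptor of granulocyte differentiation, at 0.74 (SE 0.60). Gfi1, which encodes a repressor needed for neutrophil formation, was not listed in the table.

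In the MYC network 10 of 14 genes were tested, 5 positive and 5 negative (median -0.34). The MAX partner gene Mxi1 stood at -2.12 (SE 1.32), Mlxip, a glucose-sensing relative, at -1.70 (SE 1.08), and Mxd4 at 1.11 (SE 1.35). In LOY 4 Mxi1 held 0 reads and Mlxip 3, so both fitted values depend on the pseudocount. Of the MYC target genes 10 of 18 were tested, 7 positive and 3 negative (median 0.98), beside a median of 0.01 over all genes tested. Those of smallest p were the nucleolar chaperone gene Npm1, with 77.1 ± 81.8 normalised reads in control against 478 ± 314 in LOY libraries, the ribosome assembly gene Nop56, with 135 ± 218 and 379 ± 165, and the cap-binding factor gene Eif4e, with 197 ± 152 and 603 ± 437 (SD, n = 6 each). Their log2 fold changes were 3.49 (SE 1.23), 2.74 (SE 1.06) and 2.167 (SE 0.97), each with an adjusted p of 0.997 in limma. For Npm1 the groups overlapped through control 11 and 12, at 173 and 182, and LOY 4, at 72.1. The marker sums of cardiomyocytes and of endothelial cells were above every control library in 5 and 5 of the 6 LOY libraries and that of fibroblasts in 3. In limma 11 of 11, 8 of 10 and 5 of 5 tested genes of these lists had a positive log2 fold change (medians 1.86, 1.78 and 2.34). Their part in the values of the MYC target genes was not tested.

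Of the genes of XBP1 and the unfolded protein response 23 of 26 were tested, 14 positive and 9 negative (median 0.25). Atf6b, a membrane-bound stress factor, had the smallest p, with 144 ± 170 normalised reads in control against 683 ± 538 in LOY libraries (SD over 6 libraries each; log2 fold change 4.71, SE 1.72, adjusted p = 0.997 in limma). It held 0 reads in control 8 and 12, so its fitted value depends on the pseudocount. The chaperone genes Hspa5 and Hsp90b1 stood at 0.27 (SE 0.23) and 0.70 (SE 0.60), and Hspa5, a standard readout of this response, had 4919 ± 1419 and 5746 ± 793 normalised reads (SD, n = 6 each). Of the target genes of PU.1 and C/EBP 18 of 23 were tested, 7 positive and 11 negative (median -0.03). The sialic acid receptor gene Cd33 stood at -0.39 (SE 0.28), the iron-binding granule protein gene Lcn2 at -0.37 (SE 0.32) and the interleukin-6 receptor gene Il6ra at -0.88 (SE 0.79). Mpo, Elane and Prtn3, granule genes of neutrophil precursors, were not listed in the table.

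**Figure D5:**
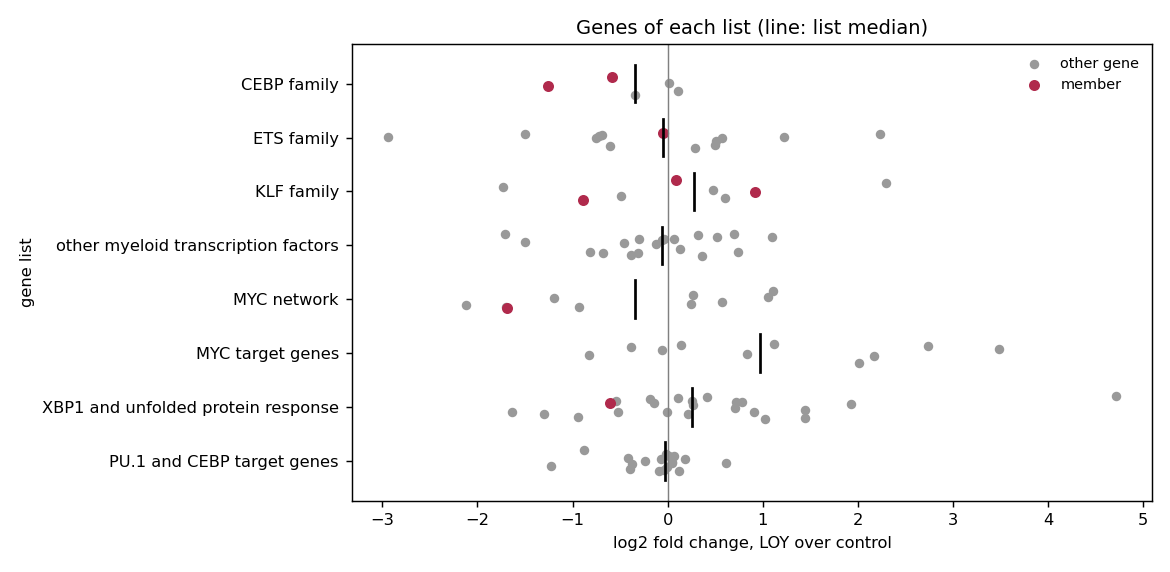
Log2 fold change, LOY over control, of every tested gene in 8 lists; red points are the factors followed here, grey points the other genes, and black lines the list medians. The list of MYC target genes has the highest median, at 0.98, and 0 genes pass the threshold.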

How the data were processed

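RNA was sequenced from 12 libraries of 800 sorted cardiac neutrophils each. Per the labels' protocols, cDNA came from a SMART-Seq v4 kit and sequencing libraries from Nextera XT; the chemistry marks neither strand nor molecules. Alignment and counting used STAR 2.5.2b and featureCounts (Subread 1.5.2) after Trimmomatic 0.36, on GRCm38 (mm10), per the submitters' processing notes. The table deposited by the authors holds signal values (read counts scaled by 1 factor per library) and, for each gene, their log2 fold change, p-value and adjusted p; no source used here names the tool for these. Every value was a whole multiple of its library's step, to within 0.01 of a read, so the reads were recovered.

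Computed here were log2(normalised reads + 1) and a limma 3.58.1 fit (R 4.3.3, trend and robust empirical Bayes, intercept and genotype, all 12 libraries) over the 6951 genes whose level reached 10 normalised reads in 6 or more libraries. Fold changes are differences of means on that log2 scale; for genes near 0 in some libraries they can differ widely from the ratio of the group means and from the count models. The fit was tested on simulated counts, in which only genes of higher level and lower spread were changed. Genes at the level of Myc were not among those changed, so that test does not cover them. Permutation tests used scipy 1.17.1 and numpy 2.4.6. Alternatives were edgeR 4.0.16 and DESeq2 1.42.0 on the recovered reads, pseudocounts of 0.5 and 5, no filter, a mean of at least 50, quantile normalization, and each library left out. No pair of libraries agreed within sampling noise (lowest chi-square per degree of freedom 196). Coordinates, exon lengths (union of exons) and 17 gene symbols deposited as dates were taken from GENCODE M21 on GRCm38; promoter sequences are from RefSeq.

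The members and lists were chosen with earlier results of these data known. By rule, the text names all members, up to 3 other genes of smallest p per list and the gene most alike to each member. Of these, 1 gene that the rule names is not reported here. Ets2, Spib, Hspa5's level, Tmem189 and Spidr, and the genes given only as missing or as label checks, were named outside that rule or after their values were seen. Floors cover counting error only, since PCR copies count as reads.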

Additional observations from a re-analysis of the deposited data

Results flagged for a closer look

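Of 32 groups of 6 libraries tested for a library standing apart (Dixon's test at the 95% level; chance gives about 1 in 20), 4 did. Xbp1 in LOY 4 stood at 4781 normalised reads, against 821 to 1691 in the other LOY libraries. The log2 ratio of Mxd1 to Myc in control 7 was 13.95, against 5.95 to 8.82 in the other control libraries, and rests on 1 read of Myc. The cardiomyocyte marker sum in LOY 10 was 58872 normalised reads, against 4429 to 13657 in the other LOY libraries. The B and plasma cell marker sum in LOY 3 was 25880 normalised reads, against 3887 to 11652 in the other LOY libraries, of which 18312 were Igkc and 2013 Jchain.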

How the results depend on the processing

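The count of members past the threshold was 0 in limma, edgeR and DESeq2 and under every alternative run, and so were the counts of the 8 lists of factors, partners and targets. Adjusted p-values of the members ran from 0.916 to 0.9999 over all alternatives, and at most 1 member had an unadjusted p under 0.05 in any of them: Cebpd with a pseudocount of 5, with no filter, with a mean of at least 50, and without control 8, LOY 3 or LOY 10, Klf2 without control 6, and Xbp1 without LOY 4. The count over all genes, 2 in limma, was 0 with no filter (466 at an unadjusted p under 0.05), 0 with a mean of at least 50 (327), 0 in edgeR (122) and 10 in DESeq2, and ran from 0 to 4 with 1 library left out: 0 without control 7, 8 or 12 or LOY 3, 4, 5, 14 or 15 (263 to 300 at an unadjusted p under 0.05), 1 without control 2, 2 without LOY 10, 3 without control 6 and 4 without control 11. The cause of these shifts was not tested. Of 152 member values under alternatives 146 kept their sign and side of the threshold and 6 changed sign. Klf4 was -0.0010 in edgeR against 0.92. Spi1 ran from -0.279 to 0.0427 with 1 library left out and turned positive without control 6, 7 or 12 or LOY 10. Klf6 ran from -0.0230 to 0.20 and turned negative without control 8. Left-out ranges were -1.05 to -0.28 for Cebpb, -1.70 to -0.998 for Cebpd, -1.24 to -0.64 for Klf2, 0.07 to 1.54 for Klf4, -0.94 to -0.43 for Xbp1, -2.76 to -0.78 for Myc and 1.03 to 3.11 for the log2 ratio of Mxd1 to Myc. The tool moved several values by over 1.5 times: from limma to edgeR and DESeq2, Cebpb went from -0.58 to -1.001 and -0.99, Cebpd from -1.26 to -0.73 and -0.71, Xbp1 from -0.60 to -0.37 and -0.36, Myc from -1.69 to -0.71 and -0.69, Spi1 from -0.05 to -0.14 and -0.13 and Klf6 from 0.09 to 0.02 and 0.04. With quantile normalization Klf4 was 0.50 and Klf6 0.22. The lowest libraries held 4 reads of Klf4 and 0 of Myc. No paired analysis was possible because the control and LOY libraries share no replicate number. The ratio of Cebpb to Cebpa was not run, since Cebpa is not listed.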
